A study of Mus musculus with 8 samples.

Results

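The 200 *Zfp* genes with the most reads in mouse liver were compared between livers labelled *Srsf10-kd* and *Ctrl* livers, and each member was read beside its transcript length. In the GENCODE M21 annotation of GRCm38, 365 protein-coding genes have a symbol made of Zfp and a number. All 365 have a row among the 45706 gene identifiers of the count table, and 351 had at least 1 count. The 200 with the largest raw count summed over the 8 livers were taken as members, so the members were chosen by their summed raw count and not by any difference between the groups. The members just inside this limit were *Zfp605* with 1348 and *Zfp867* with 1330 summed counts, and *Zfp873* with 1314 and *Zfp820* with 1286 fell just outside. Their levels are therefore given as a description. All 200 members passed edgeR's filter on low counts and were among the 15491 genes tested.

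Both groups were male mice of the strain labelled C56B6/J. They received an adeno-associated virus (AAV2/8) by tail vein at 6 weeks of age and, starting 4 weeks later, 12 weeks of a high-fat diet whose fat gave 60% of the calories. In the 4 mice of the group labelled Srsf10KD (*Srsf10-kd*) the chicken β-actin (CBA) promoter of the virus drove GFP and a mirE/shRNA against *Srsf10*, which encodes a serine/arginine-rich splicing factor. The 4 mice labelled WT (*Ctrl*) received the control virus and the same diet, so no group was free of virus or of the diet. The CBA promoter is active in many cell types and is not limited to hepatocytes. Poly(A) RNA of whole liver was sequenced, and 50456404 to 59697241 reads per liver were counted on genes. The members took 0.223% to 0.281% of these counts. *Srsf10* itself was at 31.6, 33.7, 35.3 and 30.9 CPM (reads per 1000000, scaled by TMM) in *Ctrl* 1 to 4 and at 34.3, 34, 41.0 and 36.5 CPM in *Srsf10-kd* 1 to 4, with a log2 fold change of 0.15 (standard error 0.10, adjusted p = 0.378 in edgeR). SRSF10 protein is not measured by these libraries. Since the RNA was at no lower level under the knockdown label, the second group is written below as the livers labelled kd.

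C2H2 zinc finger proteins bind DNA or RNA through small modules in which a pair of cysteines and a pair of histidines hold a zinc ion. Many of them also carry a KRAB domain at the N-terminus, which recruits the corepressor TRIM28 (KAP1), and with it the histone methyltransferase SETDB1 and HP1 proteins, to silence retroelements and imprinted genes. KRAB zinc finger genes lie in tandem clusters, and their coding sequences resemble each other. Others of the same name are not DNA-binding repressors but act on RNA, on ubiquitin or on the mitotic spindle.

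The letters of these domains show what the members share. The KRAB core was searched in the translated coding transcripts as a window in which at least 13 of 19 conserved positions were kept, and 100 of the 200 members had it. The lowest score among these was 13 and the highest among the others was 12. The members had up to 32 fingers of the strict C2H2 spacing, with a median of 12 in members with the KRAB core and 7 in those without it, and 8 members had none. The coding bases of the 102-base core are printed 5′ to 3′ from GENCODE M21 transcripts for 4 members with lower levels in the livers labelled kd and for 1 with a higher level, *Zfp950*. Capitals mark the codons that keep a conserved position. The cores lie on GRCm38 at chr17:32777420-32777521 on the minus strand (*Zfp871*), chr9:122856718-122856819 on the minus strand (*Zfp445*), chr7:24273254-24273355 on the plus strand (*Zfp93*), chr7:12968801-12968902 on the plus strand (*Zfp324*) and chr19:61127457-61127558 on the minus strand (*Zfp950*).
Zfp871: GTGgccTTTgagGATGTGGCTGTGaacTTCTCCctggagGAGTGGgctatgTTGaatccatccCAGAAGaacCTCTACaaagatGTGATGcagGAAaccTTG
Zfp445: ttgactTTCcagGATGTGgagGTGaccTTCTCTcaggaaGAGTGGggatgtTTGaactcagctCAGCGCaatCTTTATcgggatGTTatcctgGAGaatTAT
Zfp93: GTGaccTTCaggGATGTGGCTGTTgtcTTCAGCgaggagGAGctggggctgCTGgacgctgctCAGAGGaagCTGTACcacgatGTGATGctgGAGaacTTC
Zfp324: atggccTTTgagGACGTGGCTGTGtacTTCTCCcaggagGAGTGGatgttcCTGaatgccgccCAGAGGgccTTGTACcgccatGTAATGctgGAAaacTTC
Zfp950: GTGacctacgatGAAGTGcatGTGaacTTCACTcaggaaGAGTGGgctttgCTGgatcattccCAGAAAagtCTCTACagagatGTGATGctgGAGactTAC

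All 19 positions were kept in *Zfp871*, 18 in *Zfp93* and *Zfp324*, 17 in *Zfp950* and 16 in *Zfp445*. Base by base, the core of *Zfp871* matched that of the 99 other members with the core at 52.9% to 88.2% of positions, with a median of 67.6%. The closest cores were those of *Zfp799* and *Zfp870*, each with 88.2% of bases in common, which are also its neighbours on chromosome 17. *Zfp950* shared 75.5% of the core with *Zfp871*, *Zfp324* 74.5%, *Zfp93* 68.6% and *Zfp445* 63.7%.

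The fingers are shown for the same reason. The first finger followed by a linker is printed for *Zfp871* (chr17:32775453-32775533, minus strand), *Zfp445* (chr9:122852889-122852969, minus strand) and *Zfp950* (chr19:61120251-61120331, minus strand). Capitals mark only the codons of the cysteines and histidines that define the finger, and other histidine codons are in small letters. A CCCH finger of *Zfp36* (chr7:28378158-28378217, minus strand), an RNA-binding member with no C2H2 finger, is set beside them.
Zfp871 finger: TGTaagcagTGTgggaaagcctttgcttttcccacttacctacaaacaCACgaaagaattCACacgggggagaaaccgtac
Zfp445 finger: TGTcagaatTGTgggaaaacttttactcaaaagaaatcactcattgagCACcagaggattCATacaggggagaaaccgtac
Zfp950 finger: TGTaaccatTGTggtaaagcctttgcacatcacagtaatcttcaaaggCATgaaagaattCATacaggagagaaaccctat
Zfp36 finger: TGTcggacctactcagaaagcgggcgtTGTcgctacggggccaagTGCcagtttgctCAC

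Levels can be compared between genes only per length, here as mean CPM per kilobase of the longest protein-coding transcript. On this scale the members ran from 0.267 to 36.9 CPM per kilobase with a median of 2.32, and 170 of the 200 were above 1. The highest were *Zfp36* at 36.9, *Zfp207* at 28.3, *Zfp706* at 26.2, *Zfp91* at 24.4 and *Zfp598* at 13 CPM per kilobase. None of these 5 had the KRAB core. The highest of the members with the core were *Zfp970* at 10.8, *Zfp825* at 10.7 and *Zfp809* at 9.61 CPM per kilobase. The median coefficient of variation between livers was 12.8% in *Ctrl* and 11.5% in the livers labelled kd, and 16.8% and 11.3% over the 67 members with the longest transcripts.

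In the edgeR fit over all genes a single member had an adjusted p under 0.05, *Zfp871*, which was lower in the livers labelled kd. Over all 15491 genes tested, 11 genes (0.071%) passed, all of them lower. At an unadjusted p under 0.05, 37 members (18.5%) were lower and 4 (2.0%) higher, beside 10.6% and 11.2% of all genes. The groups did not overlap in 26 members (13%) that were lower and in 4 (2.0%) that were higher, beside 7.53% and 6.73% of all genes. The median log2 fold change of the members was -0.14, against 0.01 over all genes tested. Of the 200 members, 149 (74.5%) were below 0, beside 48.7% of all genes tested. DESeq2, the tool the study used, called 17 members lower and 1 higher at an adjusted p of 0.05, where it called 3.25% of the genes with an adjusted p lower and 2.02% higher. This excess of lower members has to be read beside transcript length, which is given further on.

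*Zfp871* (ENSMUSG00000024298, chr17:32765496-32788287, minus strand) encodes a KRAB protein with 15 fingers. Its longest transcript has 10851 bases, of which 8859 are 3′ UTR. It was at 13.2, 21.2, 14.8 and 10.7 CPM in *Ctrl* 1 to 4, from 611 to 1295 reads, and at 2.89, 4.09, 2.43 and 3.26 CPM in *Srsf10-kd* 1 to 4, from 125 to 213 reads. Every *Ctrl* liver was above every liver labelled kd. Means of 15 ± 4.46 and 3.17 ± 0.703 CPM (SD, n = 4 each) gave a log2 fold change of -2.24 (standard error 0.23, edgeR adjusted p = 0.0166), or 4.73-fold lower. On log2 CPM, the exact permutation p (two-sided) was 0.0286, and 4 livers against 4 allow none smaller. *Zfp871* had the 2nd smallest p of all genes tested. With the trend on transcript length removed, the log2 fold change was -1.92 (adjusted p = 0.0280). No stretch of 75 bases of its transcripts occurs in those of other genes. The log2 fold change stayed between -2.39 and -2.03 with each liver left out in turn, but the adjusted p ran from 0.0166 to 0.0969. Leaving out *Ctrl* 2 gave 0.0516. In the group labelled kd, leaving out liver 1 gave 0.0823, liver 2 gave 0.0536 and liver 4 gave 0.0969. In these 4 edgeR fits no gene of the whole table passed, while 26 to 34 members (13% to 17%) were lower at an unadjusted p under 0.05, beside 6.99% to 11.01% of all genes.

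The neighbours of *Zfp871* did not share a change of this size. Within 1000000 bases of it lie 6 other members, all with the KRAB core, whose log2 fold changes ran from -0.38 in *Zfp799* to 0.26 in *Zfp472*. *Zfp799* (chr17:32815449-32830261) was at 5.69, 7.10, 7.88 and 5.13 CPM in the *Ctrl* livers and at 4.81, 5.04, 4.86 and 5.11 CPM in the livers labelled kd (adjusted p = 0.196 in edgeR), so the groups did not overlap but nearly met. *Zfp870* (chr17:32879219-32891642) had a log2 fold change of -0.22 (standard error 0.13, adjusted p = 0.320) with overlapping groups. Both were singled out after their values were seen. Over the 27 members on chromosome 17 the median log2 fold change was -0.10, and only *Zfp871* passed the adjusted threshold. The plot by chromosome gives this for the whole set.

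**Figure D1:**
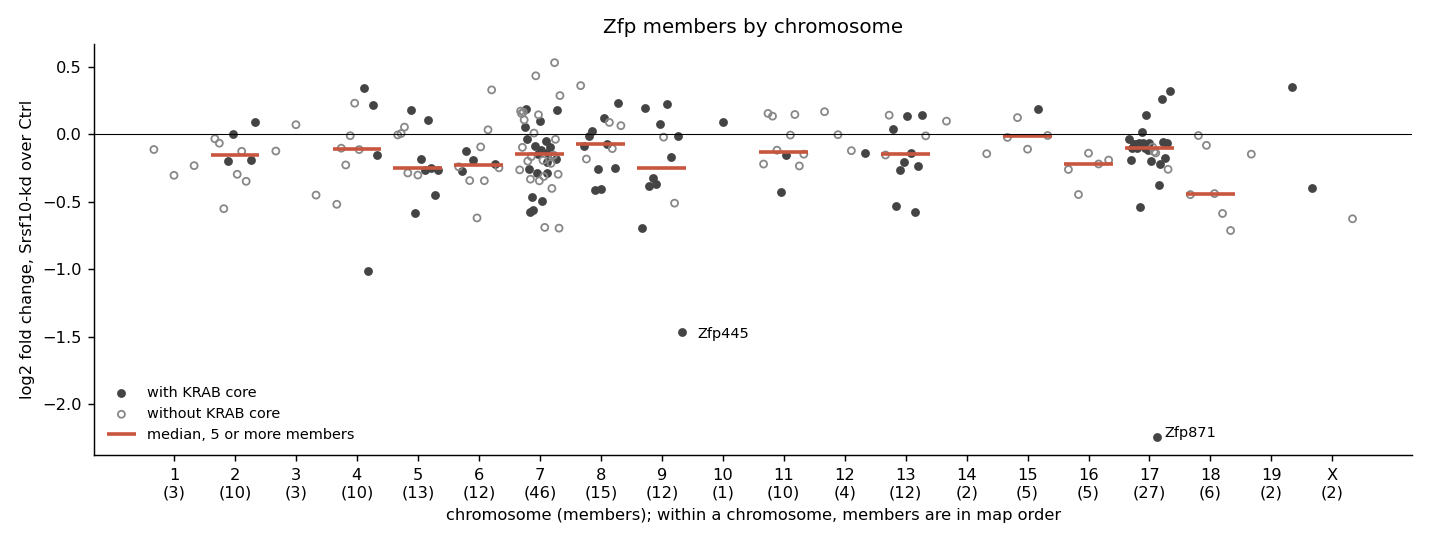
Log2 fold change (*Srsf10-kd* over *Ctrl*, edgeR) of each of the 200 members on the vertical axis, by chromosome on the horizontal axis, with members in map order. Filled points have the KRAB core, open points do not, and bars are medians of chromosomes with at least 5 members. *Zfp871* at -2.24 and *Zfp445* at -1.47 stand apart from their neighbours.

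*Zfp445* (ENSMUSG00000047036, chr9:122844529-122866006, minus strand), a KRAB protein that maintains imprinting, had the next largest difference and was singled out after its values were seen. Its level was 54.4, 56.4, 37.7 and 46.1 CPM in *Ctrl* 1 to 4 and 22, 24.3, 4.67 and 19.4 CPM in *Srsf10-kd* 1 to 4. The groups did not overlap, and *Srsf10-kd* 3 lay far below the others of its group. The log2 fold change was -1.47 (standard error 0.40), and the edgeR adjusted p was 0.127. Without *Srsf10-kd* 3 the log2 fold change was -1.15 and the adjusted p was 0.0271, and with each other liver left out the adjusted p was above 0.05. DESeq2 gave an adjusted p of 0.00966. *Zfp982* (ENSMUSG00000078496, chr4:147492417-147513486), also singled out for its size, was at 4.64, 6.46, 6.68 and 3.23 CPM in *Ctrl* and at 2.62, 3.54, 1.15 and 3.06 CPM in the livers labelled kd. The groups overlapped, and the log2 fold change of -1.02 (standard error 0.34, adjusted p = 0.154 in edgeR and under 0.05 in DESeq2) became -0.64 without *Ctrl* 3 and *Srsf10-kd* 3.

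The other members with the smallest p among those whose groups did not overlap had smaller differences, and none passed the adjusted threshold in edgeR. In DESeq2 the adjusted p was 0.00557 in *Zfp324*, 0.0133 in *Zfp111* and under 0.05 in *Zfp93*. *Zfp93* (chr7:24270420-24277794), with the KRAB core and 13 fingers, was at 4.86, 4.91, 5.05 and 4.65 CPM in *Ctrl* and at 3.63, 3.09, 3.07 and 3.40 CPM in the livers labelled kd. The difference on the log2 scale was -0.56 (standard error 0.12, adjusted p = 0.101), and 11.7% of its 75-base stretches occur in other genes. How many of its reads this affects was not measured. *Zfp324* (chr7:12965838-12974236), a KRAB member with 9 fingers, was at 5.12, 6.08, 4.75 and 5.0 CPM against 3.64, 3.90, 3.25 and 3.24 CPM, a log2 fold change of -0.58 (standard error 0.13, adjusted p = 0.115). Both groups of these genes were narrow, with SDs of at most 0.582 CPM. *Zfp111* (chr7:24193947-24211443), a KRAB member close to *Zfp93* on the chromosome, had means of 4.82 ± 0.244 CPM and 3.49 ± 0.274 CPM (SD, n = 4 each) and a log2 fold change of -0.47 (adjusted p = 0.119).

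Of the members without the KRAB core, *Zfp507* (chr7:35772343-35803003) was at 16.7, 15.2, 11.1 and 17 CPM in *Ctrl* and at 9.68, 10.7, 7.29 and 9.51 CPM in the livers labelled kd. *Ctrl* 3 and *Srsf10-kd* 3 were the lowest of their groups. This gave a log2 fold change of -0.69 (standard error 0.16, adjusted p = 0.116), and 25.6% of its 75-base stretches are shared with other genes. *Zfp275* on chromosome X had means of 10.4 ± 1.94 and 6.71 ± 0.638 CPM (SD, n = 4 each), a log2 fold change of -0.63 (adjusted p = 0.116), with *Ctrl* 1 and *Srsf10-kd* 4 nearly meeting. *Zfp292* had means of 19.9 ± 1.99 and 13.9 ± 1.80 CPM (SD, n = 4 each), a log2 fold change of -0.52 (adjusted p = 0.116). *Zfp407*, which regulates the glucose transporter Glut4 in adipocytes, had means of 7.54 ± 1.48 and 4.59 ± 0.810 CPM (SD, n = 4 each) and a log2 fold change of -0.71 (adjusted p = 0.119). DESeq2 gave an adjusted p of 0.0113 in *Zfp507*, 0.0105 in *Zfp275*, 0.00771 in *Zfp292* and 0.0155 in *Zfp407*. The transcripts of these 4 genes have 6376 to 9986 bases. With the length trend removed the log2 fold changes were -0.44 in *Zfp507*, -0.39 in *Zfp275*, -0.19 in *Zfp292* and -0.42 in *Zfp407*. *Zfp746* (PARIS), a repressor of the coactivator PGC-1α and a substrate of Parkin, was chosen after its values were seen. It kept 10 of the 19 KRAB positions, below the 13 needed here, which does not show that it lacks a KRAB domain. Its means were 25.1 ± 5.53 and 16.3 ± 2.68 CPM (SD, n = 4 each), with overlapping groups and a log2 fold change of -0.62. The adjusted p was 0.131 in edgeR and under 0.05 in DESeq2.

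Few members were higher in the livers labelled kd, and none passed the adjusted threshold in edgeR. *Zfp950* (chr19:61053840-61140840), with the KRAB core and 17 fingers, was at 13.5, 14.9, 14.4 and 13.5 CPM in *Ctrl* and at 17.3, 17.9, 19.98 and 16.7 CPM in the livers labelled kd. All livers of the second group were above those of the first, with a log2 fold change of 0.35 (standard error 0.10, adjusted p = 0.131 in edgeR and 0.0276 in DESeq2). With the length trend removed it was 0.52. *Zfp959* (chr17:55892093-55898928), a KRAB member with 9 fingers, had means of 5.98 ± 0.675 and 7.46 ± 0.316 CPM (SD, n = 4 each), a log2 fold change of 0.32 (adjusted p = 0.180). *Zfp637* (chr6:117841180-117845956), without the KRAB core, was at 12.9, 11.6, 11.8 and 11.9 CPM in *Ctrl* and at 13.2, 13.8, 19.9 and 13.6 CPM in the livers labelled kd. Its log2 fold change of 0.33 (adjusted p = 0.220) was 0.17 without *Srsf10-kd* 3 and 0.07 with the length trend removed. The largest positive value of all members, 0.53 in *Zfp771*, also came with *Srsf10-kd* 3, since the levels were 13.4, 16.7, 38.9 and 17.9 CPM in the livers labelled kd and 15.1, 14.7, 16 and 14.4 CPM in *Ctrl*. Without that liver it was 0.09, and this gene too was picked for its value.

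**Figure D2:**
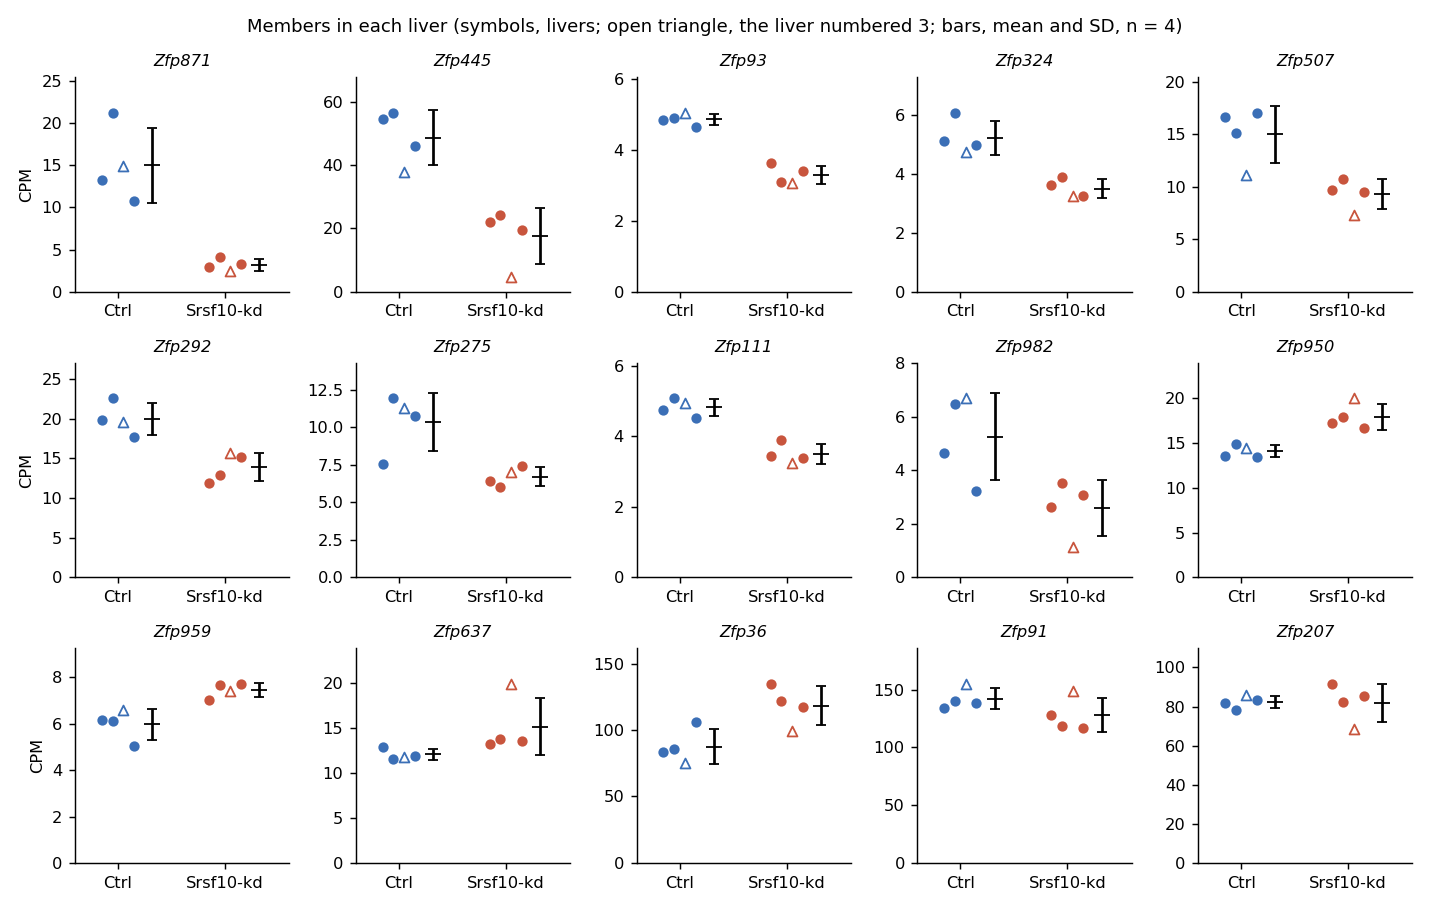
CPM of 15 members in each of the 8 livers, with mean and SD (n = 4) beside each group and the liver numbered 3 as an open triangle. The groups are separate in *Zfp871*, *Zfp445*, *Zfp93*, *Zfp324*, *Zfp507*, *Zfp292*, *Zfp275*, *Zfp111*, *Zfp950*, *Zfp959* and *Zfp637* and overlap in *Zfp982*, *Zfp36*, *Zfp91* and *Zfp207*.

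No member from the list of known roles outside KRAB repression had an adjusted p under 0.05 in edgeR. *Zfp36* (tristetraprolin), which binds AU-rich elements and hastens mRNA decay, was at 83.1, 86.0, 75.5 and 106 CPM in *Ctrl* and at 135, 122, 99.3 and 117 CPM in the livers labelled kd. *Ctrl* 4 lay above *Srsf10-kd* 3, giving a log2 fold change of 0.43 (standard error 0.14, adjusted p = 0.150 in edgeR). *Zfp91*, an E3 ubiquitin ligase of non-canonical NF-κB signalling and the member with the most reads, had means of 142 ± 9.06 and 128 ± 14.7 CPM (SD, n = 4 each) and a log2 fold change of -0.15 (adjusted p = 0.429). *Zfp706*, a small protein with a single finger, had means of 111 ± 6.83 and 121 ± 6.96 CPM (SD, n = 4 each), with a log2 fold change of 0.12 (adjusted p = 0.450). *Zfp207* (BuGZ), which acts on the mitotic spindle and binds BUB3, had means of 82.3 ± 3.26 and 81.9 ± 9.75 CPM (SD, n = 4 each). *Zfp598*, an E3 ligase that senses collided ribosomes, was at 54.9, 45.5, 30.7 and 50.3 CPM in *Ctrl* and at 38.8, 45.0, 36.4 and 45.7 CPM in the livers labelled kd, a log2 fold change of -0.13 (adjusted p = 0.656). The order of *Zfp706* and *Zfp91* by CPM per kilobase turned between the groups, at 25.1 and 25.7 in *Ctrl* and at 27.3 and 23.2 in the livers labelled kd. The values in *Ctrl* lay close together, and neither gene passed the adjusted threshold. This order also rests on the length taken. The longest transcripts have 4417 bases in *Zfp706* and 5531 in *Zfp91*, and the unions of all exons have 4981 and 10046.

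*Zfp106*, an RNA-binding protein needed in motor neurons, was at 86.8, 88.0, 59.4 and 94.4 CPM in *Ctrl* and at 60.9, 60.7, 47.5 and 54.9 CPM in the livers labelled kd. *Ctrl* 3 lay within the other group, giving a log2 fold change of -0.55 (standard error 0.15, adjusted p = 0.130 in edgeR and 0.0361 in DESeq2). Without *Ctrl* 3 its edgeR adjusted p was 0.0321. Its transcript has 9085 bases, 23.9% of its 75-base stretches are shared, and with the length trend removed the log2 fold change was -0.23. *Zfp638*, which takes part in adipocyte differentiation and in the silencing of unintegrated retroviral DNA, had means of 39.7 ± 2.32 and 31.2 ± 3.09 CPM (SD, n = 4 each) in groups that did not overlap. Its log2 fold change of -0.34 (adjusted p = 0.138 in edgeR and 0.0496 in DESeq2) was -0.05 with the length trend removed, for a transcript of 9033 bases. *Zfp148*, a factor of GC-rich promoters with a transcript of 9830 bases, had a log2 fold change of -0.22 (adjusted p = 0.227), which turned to 0.08 when the length trend was removed.

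Among the DNA-binding factors of the role list, *Zfp143*, which activates promoters of snRNA and housekeeping genes, had a log2 fold change of -0.16 (standard error 0.12, adjusted p = 0.451). *Zfp281*, a regulator of pluripotency genes, had -0.23 (standard error 0.18, adjusted p = 0.432). *Zfp410*, an activator of *Chd4*, was at 18.4 ± 1.87 CPM in *Ctrl* and 18.4 ± 1.73 CPM in the livers labelled kd (SD, n = 4 each). *Chd4* had a log2 fold change of -0.34 (standard error 0.21, adjusted p = 0.348). Of the KRAB members with known targets, *Zfp568*, which silences a placental promoter of *Igf2*, was at 14.1, 12.6, 11.1 and 15.6 CPM in *Ctrl* and at 10.4, 10.7, 6.69 and 10.03 CPM in the livers labelled kd, with a log2 fold change of -0.49 (adjusted p = 0.161). *Zfp809*, which silences proviruses of murine leukaemia virus, was at 21.5, 14.4, 14 and 13.9 CPM in *Ctrl* and at 16.8, 16.5, 27.6 and 13.6 CPM in the livers labelled kd. Its log2 fold change of 0.23 (standard error 0.23, adjusted p = 0.552) turned to -0.02 without *Srsf10-kd* 3. *Zfp57* and *Zfp125*, also on this list, were not among the 200.

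The members' values followed transcript length. The length is that of the longest protein-coding transcript of each gene, 1015 to 13834 bases with a median of 3717, and need not be that of the transcript made in liver. Among the 66 shortest members, of 1015 to 3017 bases, the median log2 fold change was 0.05 and 31 (47.0%) were below 0. The 67 members of 3040 to 4525 bases had a median of -0.15, with 57 (85.1%) below 0. The 67 longest, of 4550 to 13834 bases, had a median of -0.25, with 61 (91.0%) below 0. The median of the 66 shortest turned negative, at -0.02, with the length trend removed. When the union of all exons gave the length, the 66 shortest were drawn anew, and their median was -0.04. Spearman's rho of log2 fold change on transcript length was -0.57 both across the 200 members and across 13396 protein-coding genes tested. These are correlations across genes of the same 8 libraries, and genes are not independent replicates.

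The same length ranges were then read over the whole table. Over all genes tested of the 3 length ranges the medians were 0.12, -0.09 and -0.24, and 32.3%, 64.6% and 78.5% were below 0. At an unadjusted p under 0.05, 2 (3.03%) of the 66 shortest members were lower, beside 2.92% of all genes of that length, and 3 (4.55%) were higher, beside 13.8%. Of the 67 members of middle length, 12 (17.9%) were lower, beside 11.02%, and 0 were higher, beside 5.14%. Of the 67 longest, 23 (34.3%) were lower, beside 28.1%, and 1 (1.49%) was higher, beside 2.93%. No test of these differences over the list was made.

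The trend differed between livers of a group as well as between the groups. The slope of the members' log2 CPM on the log2 of transcript length, taken on deviations from each gene's mean, was 0.10, 0.14, 0.01 and 0.15 in *Ctrl* 1 to 4 and -0.07, -0.07, -0.17 and -0.08 in *Srsf10-kd* 1 to 4. *Ctrl* 3 was the lowest of its group and *Srsf10-kd* 3 the lowest of all. The slopes over all genes with a length were 0.09, 0.10, -0.03 and 0.14 in *Ctrl* and -0.02, -0.02, -0.19 and -0.07 in the livers labelled kd. The summed level of the 67 longest members was 954 to 1074 CPM in *Ctrl* and 795 to 850 CPM in the livers labelled kd. That of the 66 shortest was 741 to 776 CPM in *Ctrl* and 799 to 813 CPM in the livers labelled kd. The groups did not overlap in either sum, and they lay in opposite order. A sum is weighted to the members with the most reads. That of the shortest holds *Zfp36*, whose levels are given above, so it does not show a rise of short members in general. The median deviation of the 66 shortest was -0.022 to 0.0049 in *Ctrl* and 0.0088 to 0.032 in the livers labelled kd, so the groups nearly met. RNA integrity is not given in the sources used here, and what moved the slopes was not tested.

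**Figure D3:**
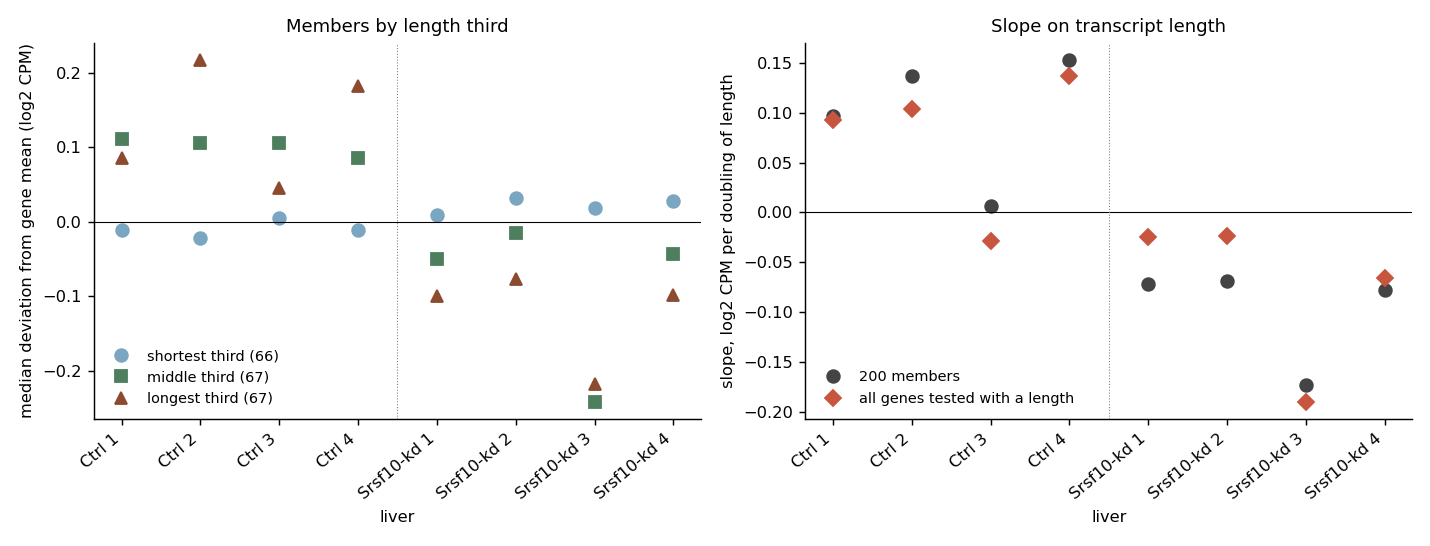
Left, the median deviation of log2 CPM from each gene's mean in every liver, for the 66 shortest, 67 middle and 67 longest members. Right, the slope of log2 CPM per doubling of transcript length in every liver, for the 200 members and for all genes tested with a length. The longest members lie above 0 in all *Ctrl* livers and below 0 in all livers labelled kd, and *Srsf10-kd* 3 has the steepest negative slope.

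With each library's lowess trend on length removed, the median log2 fold change of the members was -0.05. Below 0 were 122 of 200 (61%), beside 49.4% of all genes tested. Then 17 members were lower at an unadjusted p under 0.05, beside 6.73% of all genes tested, and 6 were higher, beside 8.17%. All 17 were among the 37 without the correction. They include *Zfp871*, *Zfp445*, *Zfp982*, *Zfp746*, *Zfp93*, *Zfp324*, *Zfp507*, *Zfp407* and *Zfp106*, and *Zfp871* alone passed an adjusted p of 0.05. The 6 higher were *Zfp950*, *Zfp36*, *Zfp706*, *Zfp68*, *Zfp560* and *Zfp846*, of which *Zfp950* and *Zfp36* had an unadjusted p under 0.05 without the correction too. After the correction rho on transcript length was -0.04 across the members, while rho on coding length remained -0.26, beside -0.25 across protein-coding genes.

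Members with and without the KRAB core were also counted apart. Of the 100 with it, 74 were below 0 with a median of -0.14, and of the 100 without it, 75 were below 0 with a median of -0.13. Over all genes tested 48.7% were below 0. At an unadjusted p under 0.05, 20 members with the core (20%) and 17 without it (17%) were lower, beside 10.6% of all genes. Both sets had like lengths, with medians of 3743 and 3687 bases. By number of fingers the medians were -0.07 for 38 members with 0 to 3, -0.13 for 59 with 4 to 9 and -0.15 for 103 with 10 or more, whose median transcript lengths were 3326, 3184 and 3988 bases. Chromosome 7 holds 46 members, chromosome 17 holds 27 and chromosome 8 holds 15, with medians of -0.15, -0.10 and -0.08.

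Reads of one zinc finger gene can fit another, so shared sequence was checked. Of the 200 members, 89 had no 75-base stretch in common with transcripts of other genes on either strand, 122 had under 1% and 25 had over 10%. The median log2 fold change was -0.14 in the 122 and -0.12 in the other 78. The strand setting of the counts is not given in the sources used here, so reads of overlapping antisense genes cannot be told apart.

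Related families were set beside the members. The 38 *Zbtb* genes tested, zinc finger proteins with a BTB domain, had a median of -0.13, and 7 (18.4%) were lower and 0 higher at an unadjusted p under 0.05, beside 10.6% and 11.2% of all genes. The 17 *Zkscan* and *Zscan* genes, which carry a SCAN domain, had a median of -0.35, with 8 (47.1%) lower and 0 higher. With the length trend removed the medians were -0.07 and -0.22. The 112 *Zfp* genes below the limit of 200 that were tested had a median of -0.15, and 20 (17.9%) were lower and 4 (3.57%) higher. With the length trend removed their median was -0.12, and 74 (66.1%) were below 0, beside 49.4% of all genes tested.

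The partners of KRAB proteins were read from a list of 30 genes, of which 29 were tested. None passed an adjusted p of 0.05 in edgeR or in DESeq2, and 5 had an unadjusted p under 0.05 in edgeR, 2 (6.9%) lower and 3 (10.3%) higher, shares no larger than the 10.6% and 11.2% of all genes. *Trim28* was at 48.0 ± 9.02 CPM in *Ctrl* and 48.0 ± 3.61 CPM in the livers labelled kd (SD, n = 4 each). *Setdb1* was at 25.4, 21.6, 17 and 27.4 CPM in *Ctrl* and at 20.6, 21.2, 12.8 and 19.6 CPM in the livers labelled kd, a log2 fold change of -0.30 (standard error 0.19, adjusted p = 0.354). Of the lower genes, *Smarcad1*, a chromatin remodeller, was at -0.42. The 3 higher were *Cbx1* (HP1β) at 0.37, *Mphosph8* of the HUSH complex at 0.55 and *Rbbp4*, a histone chaperone, at 0.39. In these 3 genes *Srsf10-kd* 3 was the highest liver. It was at 46.4 CPM in *Cbx1*, beside 33.7 to 36.1 CPM in the rest of its group. In *Mphosph8* it was at 61.5 beside 28.8 to 34.5 CPM, and in *Rbbp4* at 147 beside 94.1 to 98.6 CPM. Without *Ctrl* 3 and *Srsf10-kd* 3 the log2 fold changes were 0.29 in *Cbx1*, 0.26 in *Mphosph8*, 0.22 in *Rbbp4* and -0.33 in *Smarcad1*. The groups did not overlap in any of these 5 genes, with adjusted p of 0.150 to 0.208. The median over the 29 genes was -0.16, and -0.04 with the length trend removed.

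In whole liver, fewer cells of a type and less RNA per cell cannot be told apart. Of 9 lists of 5 cell type markers, hepatocyte markers summed to 77474 to 103970 CPM in *Ctrl* and 93487 to 111558 CPM in the livers labelled kd, as liver should have. Cholangiocyte markers summed to 31.4 to 39.1 CPM in *Ctrl* and to 46.5 to 68.6 CPM in the livers labelled kd. At an unadjusted p under 0.05, 3 of these 5 were higher, beside 11.2% of all genes tested. Of the sinusoidal endothelial markers 2 were higher and 1 was lower, beside 10.6% of all genes lower, and 1 B cell marker was higher. The sums of the other 8 lists overlapped between the groups, and 2 markers of neutrophils, *Ly6g* and *Retnlg*, fell below the filter. No marker passed an adjusted p of 0.05, and the part of other cell types in the members' values was not tested. *Ctrl* 3 and *Srsf10-kd* 3, whose slopes on length were the lowest of their groups, decided several calls. Without both, a choice made after the data were seen, 16 members passed an adjusted p of 0.05 lower and 1 (*Zfp36*) higher, together 8.5% of the members, where 5.87% of all genes in that fit passed lower and 2.76% higher, and the median over the members was -0.12.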

How the data were processed

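Poly(A) RNA-seq libraries (NEBNext Ultra II) of 8 livers, 4 labelled *Ctrl* and 4 labelled *Srsf10-kd*, were analysed. Per the labels and the submitters' processing notes, reads were aligned with STAR 2.7.7a to GRCm38 (mm10) and counted per gene by STAR, and the deposited table holds these raw counts for every liver with no normalization. The strand setting and the annotation release are not given in the sources used here.

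Total counts, 50456404 to 59697241 per liver, put the least counted member at 1330 reads over the 8 livers. The members were selected on their summed raw count, and the members and gene lists were chosen with earlier results of these data known. Named genes were the members past the adjusted threshold, up to 8 per direction with the smallest p whose groups did not overlap, the 6 with the most reads and a list with known roles. *Zfp445*, *Zfp982*, *Zfp746*, *Zfp799*, *Zfp870*, *Zfp771* and members named beside a count or a level alone were named after their values were seen.

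All genes passing filterByExpr (15491) were fitted in edgeR 4.0.16 (R 4.3.3) with TMM scaling and the quasi-likelihood test on group, and p-values were adjusted by Benjamini-Hochberg over all of them. CPM are TMM-scaled, and log2 CPM used a prior count of 2. Alternatives were DESeq2 1.42.0, limma 3.58.1 voom with sample quality weights, other scalings and filters, a block on the replicate number, leaving out 1 liver at a time, and an offset taking out the lowess trend (span 0.5) of each library on transcript length. Transcript length, sequences and coordinates come from GENCODE M21 on GRCm38, as the longest protein-coding transcript. Fingers were counted as C-x2-C-x12-H-x3to5-H, which misses fingers of other spacing. The search for the KRAB core misses KRAB domains that keep fewer than 13 of the 19 positions. The scripts were tested on simulated data. A gene of the list of KRAB partners is counted but not reported here by name.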

Additional observations from a re-analysis of the deposited data

Results flagged for a closer look

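In 74 groups of 4 livers, of named genes and of summary values, 6 held a liver far from the other 3 by Dixon's criterion, where chance gives about 1 in 20, or 3.7 groups. *Zfp410*, the activator of *Chd4*, was at 15.6 CPM in *Ctrl* 3 and at 19.1 to 19.7 CPM in the other *Ctrl* livers. *Zfp568* was at 6.69 CPM in *Srsf10-kd* 3 and at 10.03 to 10.7 CPM in the rest of its group. *Zfp637* was at 19.9 CPM in *Srsf10-kd* 3 and at 13.2 to 13.8 CPM in the rest of its group. *Zfp809*, the repressor of murine leukaemia proviruses, was at 21.5 CPM in *Ctrl* 1 and at 13.9 to 14.4 CPM in the other *Ctrl* livers.

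The members' slope of log2 CPM on log2 transcript length was -0.17 in *Srsf10-kd* 3 and -0.08 to -0.07 in the rest of its group. The median deviation of the 67 longest members was -0.22 on the log2 scale in *Srsf10-kd* 3 and -0.10 to -0.08 in the rest of its group. Of the 6, 4 concern *Srsf10-kd* 3, whose cholangiocyte marker sum of 68.6 CPM was the highest of the 8 livers. What sets this liver apart was not tested.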

How the results depend on the processing

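Members past an adjusted p of 0.05 numbered 1 (0.50%, beside 0.071% of all genes) in edgeR, 18 (9.0%, beside 5.27%) in DESeq2, 24 (12%, beside 11.7%) in limma-voom with quality weights and 17 (8.5%, beside 8.62%) without *Ctrl* 3 and *Srsf10-kd* 3, a setting chosen after the data were seen. With 1 liver left out they numbered 0 to 7, with 0 without *Ctrl* 2 or *Srsf10-kd* 1, 2 or 4, and 7 (3.5%, beside 3.47%) without *Ctrl* 3. Members lower at an unadjusted p under 0.05 numbered 37 (18.5%, beside 10.6% of all genes), and 17 (8.5%, beside 6.73%) with the length trend removed. With 1 liver left out they ran from 26 (13%, beside 6.99%) without *Ctrl* 2 to 54 (27%, beside 14.7%) without *Ctrl* 3. Those higher numbered 4 (2.0%, beside 11.2%). With 1 liver left out they ran from 2 (1.0%, beside 7.12%) without *Ctrl* 4 to 5 (2.5%, beside 11.9% and 12.3%) without *Srsf10-kd* 1 or 2. The median log2 fold change of the members, -0.14, was -0.055 with the length trend removed and -0.155 to -0.088 with 1 liver left out. That of the 67 longest, -0.25, was -0.053 with the length trend removed. That of the 66 shortest, 0.046, was 0.033 in DESeq2, 0.031 with library size only, 0.028 in limma-voom, 0.035 with no filter and 0.014 to 0.068 with 1 liver left out. It reversed to -0.025 with the length trend removed. The 66 drawn anew with the union of exons as the length had a median of -0.036. Partners of KRAB proteins with an unadjusted p under 0.05 numbered 5 of 29, beside 10.6% of all genes lower and 11.2% higher. They numbered 9 in limma-voom, beside 16.2% and 15.2%, and 11 with the replicate block, beside 13.9% and 14.1%. Without *Ctrl* 3 and *Srsf10-kd* 3 they numbered 12, beside 15.7% and 12.5%. With 1 liver left out they ran from 3 without *Ctrl* 2, beside 6.99% and 6.77%, to 12 without *Ctrl* 3, beside 14.7% and 13.3%.

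With the replicate block, 1 member passed the adjusted threshold and 42 (21%) were lower and 3 (1.5%) higher at an unadjusted p under 0.05, beside 13.9% and 14.1% of all genes, and 59 genes of the whole table passed. The deviations of same-numbered livers correlated at -0.18, 0.21, 0.27 and 0.22 for numbers 1 to 4, and not every liver correlated best with its own number. Since 1 of the 4 correlations was negative and no source ties the numbers to a batch or day, the numbers were not taken to pair the livers.

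Among the named genes signs turned in *Zfp148*, *Zfp91*, *Zfp207*, *Zfp410*, *Zfp809* and *Trim28*, none of which passed the adjusted threshold in edgeR. With the length trend removed, *Zfp148* was at 0.082, *Zfp91* at 0.057 and *Zfp207* at 0.00085. *Zfp207* was at 0.093 in limma-voom and at 0.092 without *Ctrl* 3 and *Srsf10-kd* 3, and *Zfp809* was at -0.041 and -0.084 in these fits. *Trim28* was at -0.010 in DESeq2, -0.0028 with library size only, -0.022 in limma-voom, -0.0085 with no filter and -0.071 without *Ctrl* 3 and *Srsf10-kd* 3. With 1 liver left out, *Zfp207* ran from -0.063 to 0.072, *Zfp410* from -0.076 to 0.044, *Zfp809* from -0.025 to 0.40 and *Trim28* from -0.12 to 0.079. The cause of these changes was not tested. At this depth the least counted member had 1330 reads over the 8 livers.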
